A study of Mus musculus with 32 samples.

Results

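The 7 Krüppel-like factor genes Klf2, Klf3, Klf4, Klf6, Klf7, Klf10 and Klf13 were followed from myeloid progenitors to blood eosinophils. A member was measured where a probe shared by both beadchip versions was annotated to it alone in both deposited value tables. By this rule 6 of the 7 genes were measured, with 11 of the 24159 shared probes, among 15187 genes named in all. No shared probe was annotated to Klf3 in both tables, so Klf3 was not measured here.

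Krüppel-like factors are transcription factors whose zinc fingers bind CACCC and GC-rich boxes in gene control regions. In mouse T cells Klf2 holds naive cells in quiescence and Klf13 drives transcription of Ccl5, while Klf4 promotes monocyte differentiation. Klf6 is induced by injury and promotes inflammatory gene expression in macrophages, Klf7 impairs mouse blood stem and progenitor cells when overexpressed, Klf10 responds to TGF-beta and Klf3 is a repressor that recruits CtBP.

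Gene expression had been profiled on 32 Illumina MouseWG-6 arrays in 9 groups of BALB/c cells, all from mice aged 7 to 12 weeks. WT mice gave 3 arrays each of common myeloid progenitors (CMP, Lin-, Sca-1-, c-Kit+, CD34+, CD16/32 lo), granulocyte-macrophage progenitors (GMP, the same but CD16/32+ and IL-5Rα-) and eosinophil precursors (EoP, as GMP but IL-5Rα+). IL5T mice, in which an IL-5 transgene under the CD2 promoter is expressed constitutively by T cells, gave 5 arrays of CMPs, 5 of GMPs and 3 of EoPs. They also gave IL-5Rα+ c-Kit lo marrow eosinophils with medium Siglec-F (EoM BM, 3 arrays), marrow eosinophils with high Siglec-F (EoH BM, 4 arrays) and blood eosinophils with high Siglec-F (EoH PB, 3 arrays). No eosinophils from WT mice were analysed here, so every eosinophil comparison was made under constant IL-5.

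The arrays had been run in 3 runs. All 10 eosinophil arrays were in run 1 on beadchip version 1.1, 3 IL5T CMP and 3 IL5T GMP arrays were in run 2 on version 1.1, and the other 16 progenitor arrays were in run 3 on version 2.0. Eosinophils and progenitors therefore cannot be told apart from run, and the EoP comparisons also cross beadchip version. They differ in a sex-linked transcript as well, since Y-linked Eif2s3y was detected on all 22 progenitor arrays and on 0 of the 10 eosinophil arrays. Between 8360 and 10929 shared probes per array were detected, that is, had a detection p-value under 0.05. One label of the 4 EoH BM samples, that for antibodies, gives medium Siglec-F where their titles give high, and the submitted name of IL5T CMP replicate 2 reads as a GMP, although its CMP marker mean of 10.37 was the highest of the 5 IL5T CMP arrays. Of 7 measured eosinophil markers, 5 to 7 were detected on each eosinophil array, with Ccr3 at 11.07 in EoM BM and not detected in IL5T EoPs, but Il5ra was detected on only 2 of the 10 eosinophil arrays. Neutrophil granule genes were also high in marrow eosinophils, with Ltf at 15.18 and Ngp at 15.72 in EoM BM.

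The promoter of Klf2, the member with the widest range of levels, and that of Klf7, the member that changed with the transgene, are shown to set out the boxes that the family itself can bind. The windows cover the 250 bases upstream of a RefSeq start site on build GRCm38.p6, at chr8:72318812-72319061 on the plus strand for Klf2 and chr1:64121390-64121639 on the minus strand for Klf7, both 5′ to 3′. The Klf7 window lies inside the gene's span of chr1:64029448-64122345, so it belongs to an internal start site. Capitals mark CACCC on either strand (GGGTG when read in reverse) and, in Klf2, the MEF2 box that begins with CTA.
Klf2: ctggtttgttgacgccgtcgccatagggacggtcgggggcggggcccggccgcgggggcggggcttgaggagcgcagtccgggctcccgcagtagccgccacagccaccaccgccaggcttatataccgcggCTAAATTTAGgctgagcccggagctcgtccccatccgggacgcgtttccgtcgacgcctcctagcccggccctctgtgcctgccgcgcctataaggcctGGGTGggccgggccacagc
Klf7: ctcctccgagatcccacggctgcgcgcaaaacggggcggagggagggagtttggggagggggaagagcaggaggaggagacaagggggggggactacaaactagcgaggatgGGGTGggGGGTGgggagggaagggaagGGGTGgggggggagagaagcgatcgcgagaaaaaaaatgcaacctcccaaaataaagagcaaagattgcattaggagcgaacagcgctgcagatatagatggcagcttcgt
The Klf2 window holds 1 CACCC box, 2 GC boxes (GGGCGG on either strand) and 1 MEF2 box, whose nearer end lies 109 bases upstream of the start. The Klf7 window holds 3 CACCC boxes, which lie close together, and 1 GC box. The set of promoter windows used held 6 of the 7 members, with none for Klf10. A GC box was present in all 6 windows against 32.7% of 32851 promoter windows of this length, and a CACCC box in 4 of 6, those of Klf2, Klf3, Klf7 and Klf13, against 52% of all windows. The MEF2 box was found only in Klf2 among these 6 and in 0.508% of all windows, and the CArG box of serum-responsive genes in none of the 6 and 1.47% of all windows. These are matches of letters, not measured binding sites.

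Klf2, Klf6, Klf7 and Klf13 were all at their highest in IL5T eosinophils, and with the version effect removed the level of each on every eosinophil array exceeded that on every progenitor array. For Klf6, Klf7 and Klf13 this also held with the version effect left in, but not for Klf2, where IL5T CMP replicate 5 was then at 12.16, above the 7 marrow eosinophil arrays at 11.47 to 11.98 and below the 3 blood arrays. The share of all probes that separate arrays in this way, here or between the groups below, was not counted. From IL5T EoP to EoM BM 28.9% of all probes were called. Klf4 was at its highest in GMPs, and Klf10 was not detected on any array. Levels are log2 intensities after the beadchip version effect had been removed, and they were not compared between probes.

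**Figure D1:**
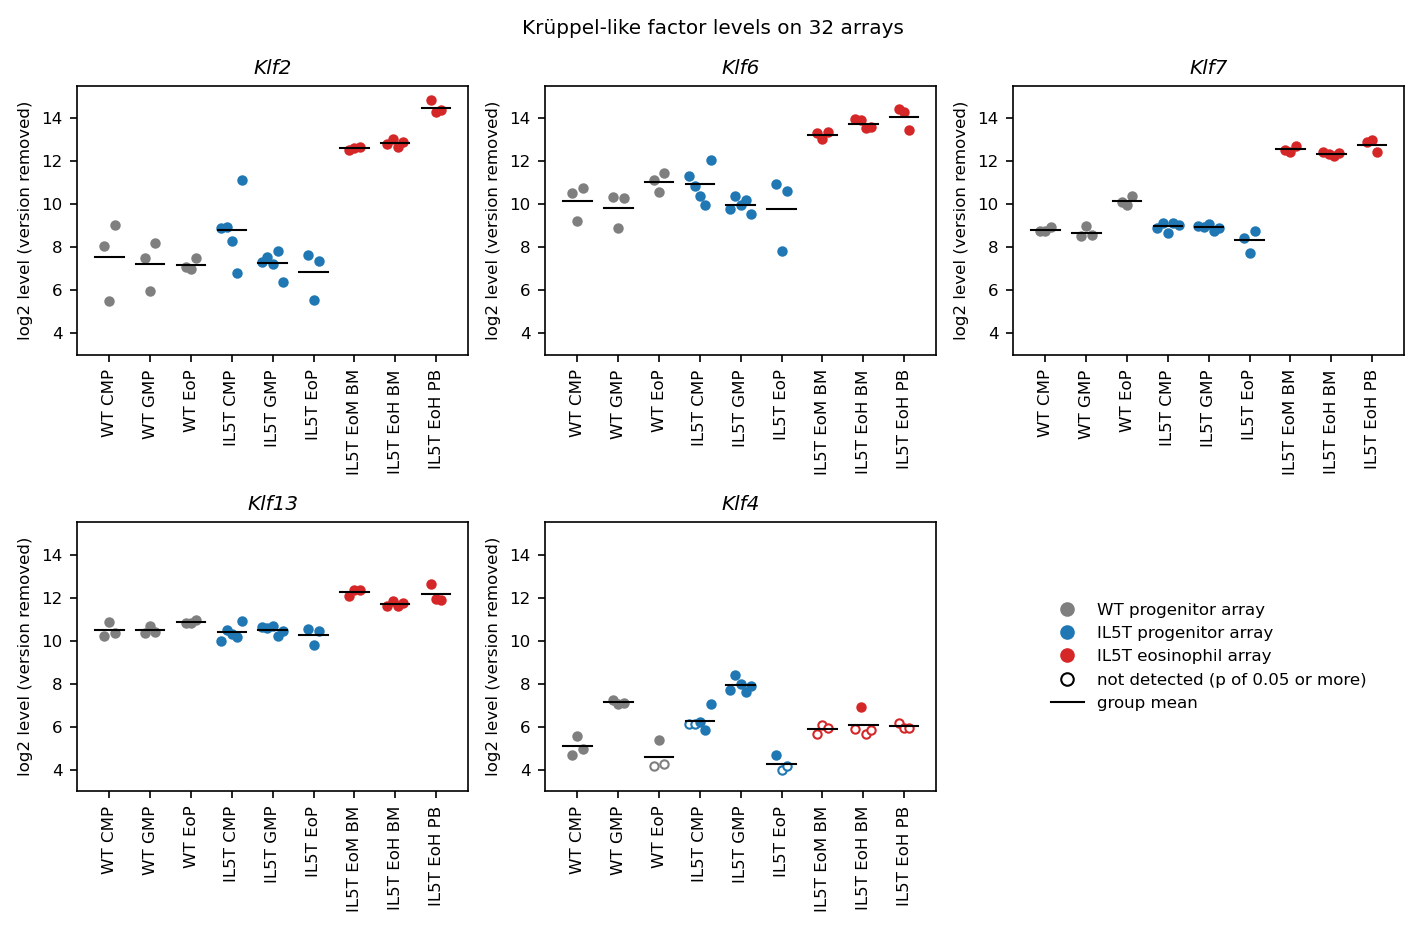
The log2 level of 5 members (vertical axis, version effect removed) on each of 32 arrays by group (horizontal axis), with filled points for arrays on which the probe was detected, open points where it was not, and a line at the group mean. Klf2, Klf6, Klf7 and Klf13 were higher in all 10 eosinophil arrays than in all 22 progenitor arrays, which for Klf2 rests on the version term, whereas Klf4 was highest in GMPs.

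Klf2, the quiescence factor of mouse T cells, was at 7.65, 5.54 and 7.37 on the 3 IL5T EoP arrays and at 12.51, 12.63 and 12.66 on the 3 EoM BM arrays. The EoH BM arrays were at 12.82, 13.03, 12.68 and 12.88, and the EoH PB arrays at 14.83, 14.28 and 14.39. No array of one stage overlapped with the next stage, and the eosinophil arrays lay close together where the EoP arrays were spread. In the order of group means the 3 eosinophil groups came first without overlap, and the 6 progenitor groups that followed, from 8.80 ± 1.56 in IL5T CMPs (SD, n = 5) to 6.86 ± 1.14 in IL5T EoPs (SD, n = 3), each overlapped with its neighbour.

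Klf6 was at 10.95, 7.81 and 10.62 in IL5T EoPs, against 13.32, 13.02 and 13.35 in EoM BM. EoH BM arrays were at 13.96, 13.91, 13.54 and 13.57 and EoH PB arrays at 14.41, 14.30 and 13.46. The low EoP value belonged to replicate 2, which was also the lowest for Klf2. The order was EoH PB, EoH BM and EoM BM, of which the first pair overlapped and the second did not, followed by progenitor groups that all overlapped with their neighbours.

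Klf7 was at 8.45, 7.72 and 8.77 in IL5T EoPs and at 12.52, 12.45 and 12.70 in EoM BM. EoH BM arrays were at 12.45, 12.32, 12.25 and 12.39, and EoH PB arrays at 12.88, 12.97 and 12.45. Each eosinophil group overlapped with the next in the order EoH PB, EoM BM, EoH BM, and WT EoPs, at 10.10, 9.96 and 10.40, stood alone between them and all the other progenitors.

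Klf13 was at 10.55, 9.82 and 10.45 in IL5T EoPs and at 12.09, 12.34 and 12.38 in EoM BM. EoH BM arrays were at 11.62, 11.87, 11.60 and 11.76, and EoH PB arrays at 12.62, 11.95 and 11.90. EoH BM lay below both other eosinophil groups without overlap, and WT EoPs, at 10.82, 10.81 and 10.95, were the highest progenitor group by mean. They did not overlap with IL5T GMPs, the next by mean, but did with WT CMPs (up to 10.87) and IL5T CMPs (up to 10.92).

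The step from precursor to eosinophil was tested first. From IL5T EoP to EoM BM, 5 of 6 members rose (limma, adjusted p under 0.05), against 28.9% of all probes called and 13.8% of all probes called upward. Klf2 rose by 5.74 ± 1.02 on the log2 scale (SE, 53.6-fold, limma adjusted p = 6.18e-05) and Klf7 by 4.25 ± 0.24 (19.0-fold, adjusted p = 5.17e-13). Klf6 rose by 3.44 ± 0.76 (10.8-fold, limma adjusted p = 0.000783) and Klf13 by 2.00 ± 0.28 (3.99-fold, adjusted p = 1.99e-06). The other probes of these genes gave the same call, with Klf7 at 4.52 and 4.37 and Klf6 at 1.79. The call for Klf4, at 1.61, rests on the version term, since its probe was detected on 0 of 3 EoM BM and 1 of 3 IL5T EoP arrays, and without that term the difference was -0.38.

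For quiescence against proliferation EoH BM was set against EoP, a pair that also differs in stage, and the same members were called. From IL5T EoP to EoH BM, 5 of 6 members rose again, against 30.6% of all probes called and 14.5% of all probes called upward. Klf2 rose by 6.00 ± 0.98 (SE, limma adjusted p = 1.87e-05), Klf7 by 4.04 ± 0.23 (adjusted p = 5.03e-13), Klf6 by 3.96 ± 0.73 (adjusted p = 9.23e-05) and Klf13 by 1.44 ± 0.26 (adjusted p = 8.88e-05). The other probes of Klf7 gave 4.71 and 4.92 and that of Klf6 gave 2.00, all called, and the call of Klf4 at 1.81 again rests on the version term, without which it was -0.18. These 2 comparisons share the same 3 EoP arrays. Of 22 measured proliferation genes, 15 fell and none rose in each, with a median of -1.29 in EoM BM and -1.68 in EoH BM against medians of 0.02 over all probes in both. EoH BM was not the lowest group for these genes. Their mean was 9.66 in IL5T EoPs, 7.87 in EoH BM and 6.33 in EoH PB, and 14 to 17 of the 22 were detected on each EoH BM array. From EoH BM to EoH PB 15 fell, with a median of -1.50.

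The version term bears on these values unequally. Only IL5T CMPs and GMPs had arrays on both versions, 3 of each in run 2 and 2 of each in run 3. The term was therefore estimated from these groups and cannot be told apart from run. For Klf2 the 2 IL5T CMP arrays of version 2.0 were the lowest and highest of their group, at 6.78 and 11.11. The term was 2.10 for Klf2 and 1.99 for Klf4, but 0.58 for Klf6, 0.26 for Klf7 and -0.22 for Klf13. Only 0.443% of all probes had one as large as that of Klf2. Without the version term the rise of Klf2 was 3.65 to EoM BM (limma adjusted p = 0.0027) and 3.90 to EoH BM (adjusted p = 0.000702). On the 16 arrays of version 1.1 alone, with no version term and chosen after these values were seen, EoM BM exceeded IL5T GMPs by 5.24 ± 0.18 for Klf2, 3.57 ± 0.14 for Klf7, 3.18 ± 0.27 for Klf6 and 1.64 ± 0.17 for Klf13 (SE, limma adjusted p of 4.9e-06 or less), with 31.5% of all probes called. In that same fit Klf4 was lower in EoM BM, where it was not detected on any array, than in IL5T GMPs (limma adjusted p = 2.43e-05). Run still differed between these groups, as did the sex-linked transcript.

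Markers of other cells also differed between EoPs and marrow eosinophils. From IL5T EoP to EoM BM 5 of 11 neutrophil markers rose and 3 fell, 4 of 7 monocyte markers rose and 1 fell, 3 of 7 T cell and 2 of 4 B cell markers rose, 5 of 6 mast cell and basophil markers fell, and 3 of 7 erythroid markers rose and 3 fell. Cd3g was at 10.24 in EoM BM and Cd79a at 8.08, neither detected in IL5T EoPs, and the haemoglobin gene Hba-a1 was at 14.04 against 5.56. The part of such cells or their RNA in the rise of the members was not tested.

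From EoM BM to EoH BM, inside 1 run and 1 version, 0 of 6 members passed the test, against 8.44% of all probes. Klf2 differed by 0.25 (95% interval -1.28 to 1.79), Klf6 by 0.52 (-0.63 to 1.66), Klf7 by -0.20 (-0.57 to 0.16) and Klf13 by -0.55 (-0.97 to -0.14, limma adjusted p = 0.0994, unadjusted p = 0.0114). Klf13 was the only member under an unadjusted p of 0.05, and of the other Klf7 probes 1 was too, at 0.55 (limma adjusted p = 0.203), against the sign of the main probe. Over the same step 4 of the 22 proliferation genes fell and none rose.

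**Figure D2:**
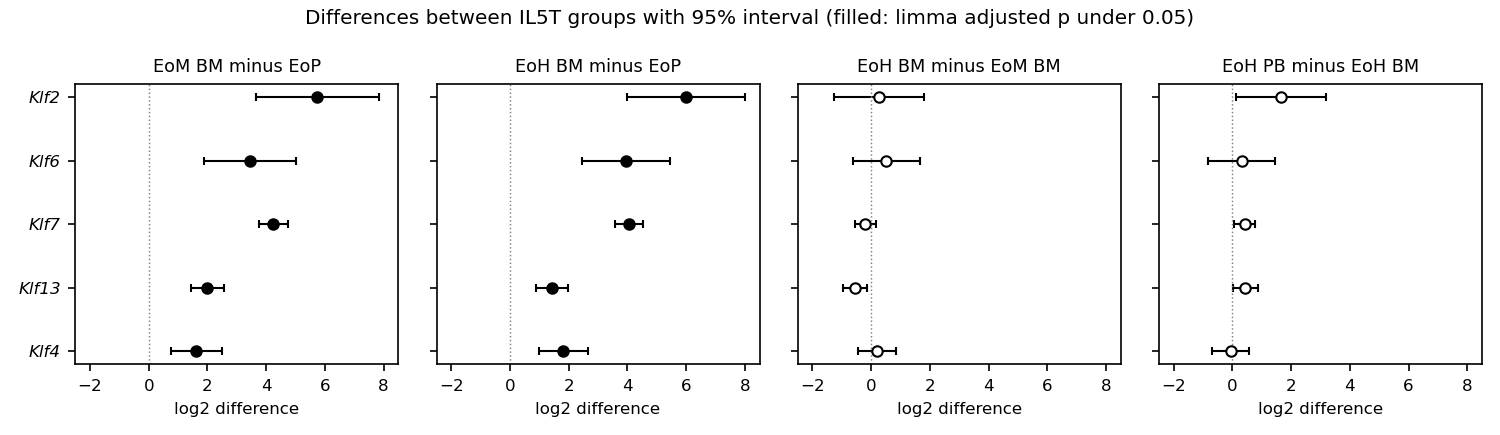
The log2 difference of 5 members (horizontal axis) with its 95% interval in 4 comparisons of IL5T groups, filled where the limma adjusted p was under 0.05. The first 2 comparisons cross array run and version, the fill of Klf4 there rests on the version term, and no member passed the test between eosinophil groups.

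Marrow was then compared with blood. From EoH BM to EoH PB 0 of 6 members passed the test over all 32 arrays, against 5.83% of all probes. Klf2 was 1.64 ± 0.75 higher in blood (SE, 3.12-fold, 95% interval 0.11 to 3.18, limma adjusted p = 0.288), although the 3 blood arrays lay above all 4 marrow arrays. The spread of Klf2 was 1.20 within progenitor groups and 0.19 within eosinophil groups (pooled SD), and the fit over all arrays uses both. With only the 10 eosinophil arrays fitted, the same 1.64 passed (limma adjusted p = 0.000574) and Klf2 was the only member that did. Klf6 differed by 0.31 (-0.84 to 1.46), Klf7 by 0.41 (0.05 to 0.78, adjusted p = 0.238) and Klf13 by 0.44 (0.03 to 0.86, adjusted p = 0.292), with unadjusted p under 0.05 for Klf2, Klf7 and Klf13. The other 2 Klf7 probes gave 0.13 and -0.00.

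Markers of other cells moved over the same step. Of 7 measured T cell markers, 3 rose in blood and none fell, Cd2 by 4.08, Cd3e by 2.69 and Thy1 by 1.64, while Cd4 and Cd8a were not detected on any eosinophil array. The mean of the T cell markers ranged from 5.46 to 5.79 in EoH BM and from 6.74 to 7.14 in EoH PB. Of 4 B cell markers, 2 rose and 1 fell, with Cd79a 1.94 and Cd79b 1.49 higher and the precursor marker Vpreb3 at 10.19 in marrow and not detected in blood, and the means ranged from 7.39 to 9.16 in marrow and from 7.79 to 8.09 in blood. Of 7 monocyte markers 3 rose, Cd14 by 2.70, Ly86 by 2.26 and Mrc1 by 1.37, and their means ranged from 6.76 to 7.43 in marrow and from 7.96 to 8.54 in blood. Among genes of granulocyte precursors, 4 of 11 neutrophil markers fell and none rose (median -2.16), with means from 10.65 to 11.77 in marrow and from 8.54 to 9.91 in blood, and 5 of 6 markers of GMPs over CMPs fell (median -4.14). Of 7 erythroid markers 4 fell and none rose (median -1.07), with means from 8.01 to 9.54 in marrow and from 6.27 to 7.46 in blood. The eosinophils had been sorted on IL-5Rα and Siglec-F, and the part of other cells in the Klf2 difference was not tested. In bulk RNA more cells of a type and more RNA per cell cannot be told apart. Of the 22 proliferation genes 15 fell in blood and none rose.

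Klf4, which promotes monocyte differentiation, followed the GMP stage. In WT cells it was at 4.69, 5.58 and 4.97 in CMPs, at 7.26, 7.04 and 7.09 in GMPs and at 4.16, 5.37 and 4.28 in EoPs. In IL5T cells it was at 6.12, 6.11, 6.22, 5.84 and 7.05 in CMPs, at 7.71, 8.42, 8.00, 7.59 and 7.91 in GMPs and at 4.68, 3.99 and 4.15 in EoPs. In both genotypes every GMP array was above every CMP and EoP array. For IL5T GMPs against IL5T CMPs across the beadchip versions, this rests on the version term, which was 1.99 for Klf4. Within each version it did not depend on that term. EoP levels were at the limit of detection, with 1 of 3 arrays detected in each genotype.

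From CMP to GMP, Klf4 was the only member called in either genotype, where 9.15% of all probes were called in WT and 10.7% in IL5T. It rose by 2.05 ± 0.33 in WT (SE, limma adjusted p = 7.87e-05) and by 1.66 ± 0.26 in IL5T (adjusted p = 3.40e-05), and its other probe rose by 1.84 and 0.90. On the 16 version 2.0 arrays alone the IL5T value was 1.30 and did not pass (limma adjusted p = 0.123). Monocyte markers moved with it, since Ccr2, Cd14, Csf1r and Ly86 rose in both genotypes, among 7 measured. Klf2 was -1.54 lower in IL5T GMPs than CMPs without passing the test (limma adjusted p = 0.141), and without IL5T CMP replicate 4, the lowest of the IL5T CMP arrays, it passed at -2.16 (adjusted p = 0.0146), whereas without replicate 5, the highest, it was -0.83.

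From GMP to EoP, Klf4 fell by 2.52 ± 0.33 in WT (SE, limma adjusted p = 5.83e-06) and fell by 3.65 ± 0.33 in IL5T (adjusted p = 1.30e-08), with 2 of 6 members called in each genotype against 9.22% and 9.31% of all probes. The other probe of Klf4 fell by 1.85 in WT. In IL5T it was detected on 0 of 3 EoP arrays and was at least 2.05-fold lower there (limma adjusted p = 2.37e-06). This bound was set by the lowest detected signal on each EoP array, or the probe's own value where higher, with the version effect left in. The monocyte receptor gene Csf1r fell by 3.22 in WT and fell by 4.15 in IL5T over the same step. The second member called was Klf7, in opposite directions, since it rose in WT and was lower in IL5T.

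Klf7 was the only member called for the transgene, and only in EoPs, where 7.3% of all probes were called and 3.55% of all probes were called downward. The WT EoP arrays were at 10.10, 9.96 and 10.40 and the IL5T EoP arrays at 8.45, 7.72 and 8.77, all 6 in 1 run on 1 version. WT GMPs were at 8.51, 8.98 and 8.55 and IL5T GMPs at 8.97, 8.92, 9.08, 8.73 and 8.89. WT CMPs were at 8.77, 8.76 and 8.94 and IL5T CMPs at 8.87, 9.13, 8.68, 9.12 and 9.03. The genotypes overlapped in CMPs and GMPs and were well apart in EoPs.

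Klf7 was lower in IL5T than WT EoPs by -1.84 ± 0.19 (SE, 3.59-fold, limma adjusted p = 4.59e-07), and its other probes gave -1.61 and -1.53, both called. Leaving out each EoP array in turn gave -1.55 to -2.07, and the call held each time. From GMP to EoP it rose by 1.48 ± 0.19 in WT cells (limma adjusted p = 4.17e-06), with the other probes at 1.19 and 1.14, also called, while 10 of the 22 proliferation genes fell and none rose. Over the same WT step 4 of 6 mast cell and basophil markers rose (median 2.01), with a list mean of 9.30 in GMPs and 11.07 in EoPs, and 2 of 7 eosinophil markers and 2 of 6 markers of CMPs over GMPs rose, with none lower in these 3 lists. In IL5T cells it was lower by -0.61 ± 0.19 (limma adjusted p = 0.0457), but the other probes at -0.60 and -0.77 did not pass, and the call was lost on leaving out any of 6 of the 8 arrays (all but IL5T GMP replicate 4 and IL5T EoP replicate 3), reaching -0.31 without IL5T EoP replicate 2.

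The difference between the transgene's effects was tested directly. The effect in EoPs minus that in GMPs was -2.08 ± 0.27 for Klf7 (SE, limma adjusted p = 5.39e-05), against 3.26% of all probes called, and the other probes gave -1.79 (adjusted p = 0.0106) and -1.91 (adjusted p = 0.00348). No other member passed this test, and between GMPs and CMPs 0 of 6 members did, against 0.0952% of all probes. In CMPs and GMPs taken singly the transgene changed 0 of 6 members, against 0.691% and 0.0745% of all probes. Klf4 was nearest, 1.19 higher in IL5T CMPs (limma adjusted p = 0.121, unadjusted p = 0.00157) without overlap. It passed at 1.00 with a larger background offset and at 0.86 with no background correction, but was -0.003 without the version term, since 3 of the 5 IL5T CMP arrays were on version 1.1. Klf4 was 0.80 higher in IL5T GMPs (limma adjusted p = 0.888), where the genotypes did not overlap, and -0.39 without the version term.

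**Figure D3:**
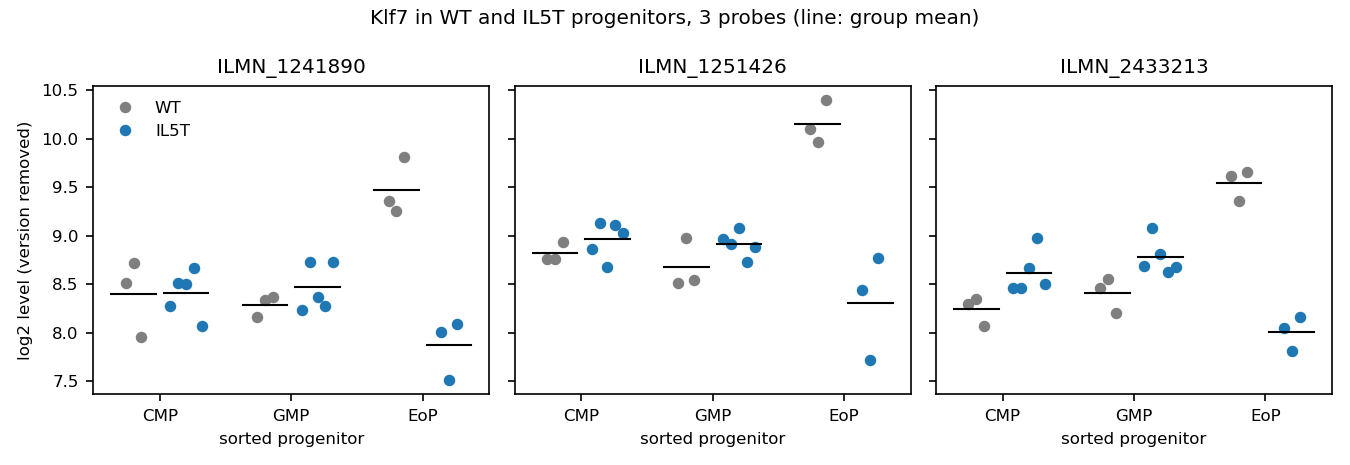
The log2 level of Klf7 (vertical axis, version effect removed) in WT and IL5T progenitors for each of its 3 probes, with 1 point per array and a line at the group mean. On each probe WT EoPs lay above every other array, and IL5T EoPs did not rise with them.

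Other genes differed between these EoPs as well. Kit, the progenitor receptor tyrosine kinase, was -1.06 lower in IL5T EoPs, and Apoe, Car1 and Meis1, which mark CMPs over GMPs, were lower by -1.99, -3.28 and -1.09 among 6 such genes measured. The proliferation genes Birc5, Ccna2 and Rrm1 rose by 1.13, 1.15 and 0.69, with none of the 22 lower. Of 6 mast cell and basophil markers Cpa3 fell by 1.47 (median -0.80), with a list mean of 11.07 in WT and 10.14 in IL5T EoPs, and of 7 erythroid markers Tfrc rose by 1.16 and Hba-a1 fell by 5.12. Among the eosinophil, monocyte and neutrophil markers none passed the test between the genotypes in EoPs. The part of these differences in that of Klf7 was not tested.

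In EoPs the remaining members gave -1.25 for Klf6 (limma adjusted p = 0.252), -0.59 for Klf13 (adjusted p = 0.11) and -0.33 for Klf2 (adjusted p = 0.912). The Klf6 value rests on IL5T EoP replicate 2 and was -0.26 without it.

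Klf2 and Klf6 varied together between arrays of the same progenitor group, along with the immediate-early genes, which cells switch on within minutes of stimulation or handling. Deviations from the group mean over 22 progenitor arrays were compared in 5 relations. For these, 15 genes were averaged per array, namely immediate-early genes such as Fos, Jun and Egr1 and the heat-shock genes Hspa1a, Hspa1b and Dnajb1. Klf2 followed these genes with r = 0.955 and rho = 0.94 (permutation within groups, two-sided, adjusted p = 3.33e-05 and 5.00e-05). Klf6 followed them with r = 0.859 and rho = 0.905, and Klf2 followed Klf6 with r = 0.862 and rho = 0.902 (permutation, adjusted p for r = 2.50e-05 in both, from the raw p of 1e-05, the smallest that 100000 permutations can give, and for rho 5.00e-05 in both). The 3 relations held with the 2 farthest arrays left out, at r of 0.94, 0.883 and 0.849. Within each version r was 0.865, 0.966 and 0.823 on the 6 arrays of version 1.1 and 0.97, 0.853 and 0.868 on the 16 of version 2.0.

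For Klf7 and Klf13 no relation with Klf2 passed the test, with r = 0.179 and rho = 0.174 (permutation adjusted p = 0.518 and 0.622) and r = 0.199 and rho = 0.0717 (adjusted p = 0.518 and 0.803). On the 6 version 1.1 arrays r was 0.648 for Klf7 and 0.141 for Klf13, and on the 16 of version 2.0 it was 0.159 and 0.211. The arrays at the extremes were IL5T CMP replicate 5, with Klf2 at 11.11, and WT CMP replicate 2, with Klf2 at 5.51. From IL5T EoP to EoM BM 2 of 18 measured immediate-early genes rose and none fell, Zfp36 by 3.93 and Junb by 2.41, with a median of 0.18. To EoH BM 5 of 18 rose, with a median of 0.52. The version term of the 15 genes averaged 0.57, from -0.40 to 1.80. The part of these genes in the spread of Klf2 and Klf6 was not tested further.

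**Figure D4:**
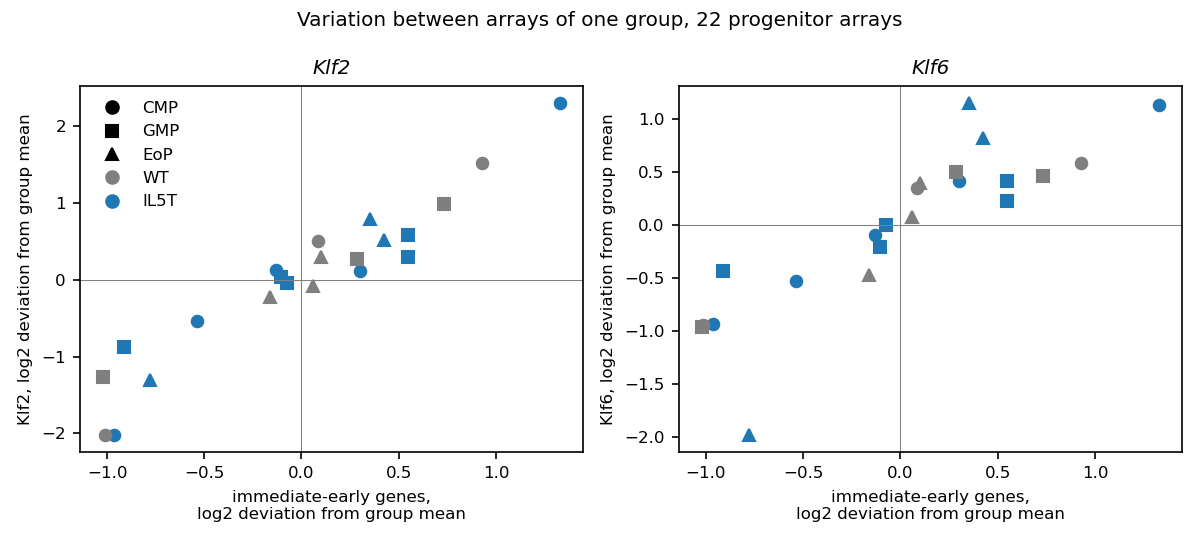
Deviation of Klf2 (left) and Klf6 (right) from the group mean, on the log2 scale, against the deviation of the mean of 15 immediate-early and heat-shock genes, with 1 point per progenitor array, shape for cell type and colour for genotype. Both rise along the horizontal axis, with r = 0.955 for Klf2 and 0.859 for Klf6 over 22 arrays.

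Among other members of the wider family, 15 of 19 listed KLF and SP genes were measured. From IL5T EoP to EoM BM 3 rose and 3 fell, with a median of 0.01. Klf5, a growth-associated factor of epithelia and smooth muscle, rose by 4.94 (limma adjusted p = 1.98e-12), from 8.52 to 13.45, and Sp4 was at 8.12 in EoM BM and not detected in IL5T EoPs. Klf1, the erythroid member, fell by 2.37. The counts in EoH BM were 3 and 2, with Klf5 4.78 higher. Klf5 rose from GMP to EoP as well, by 2.79 in WT and 1.72 in IL5T, and was 1.16 higher in IL5T than WT CMPs (limma adjusted p = 0.0139). Klf1 fell by 3.37 from CMP to GMP in WT and fell by 2.55 in IL5T, and was at 7.73 in EoH BM and not detected in EoH PB.

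All 17 listed cofactors and regulators were measured, and 8 rose and none fell from EoP to EoM BM, with a median of 0.62. Those with the largest rise were Fbxw7, a ubiquitin ligase subunit that targets KLF2 and KLF5 for degradation, at 2.35, Foxo1, an activator of Klf2 in mouse T cells, at 2.12, and the acetyltransferase gene Kat2b at 1.87. In EoH BM 8 rose and Wwp1, which encodes a ubiquitin ligase, fell by 0.92, with a median of 0.75. Mef2c, a MEF2 factor, fell by 2.42 from GMP to EoP in WT and fell by 3.53 in IL5T, and was at 6.79 in IL5T EoPs and 7.08 in EoM BM. From EoH BM to EoH PB none of the 17 passed the test.

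Of 11 genes known as KLF targets in other cells, 8 were measured and 3 rose from EoP to EoM BM, with none lower and a median of 0.60. These were Itgb7, the beta-7 integrin chain, by 6.41, Lgals3, which encodes galectin-3, by 4.81, and Cdkn1c, a cell cycle inhibitor, by 1.91. The same 3 rose to EoH BM, by 6.94, 4.42 and 1.52. S1pr1, the egress receptor that Klf2 controls in mouse T cells, was not detected on any of the 32 arrays. In blood Ccl5, the target of Klf13 in mouse T cells, was the only one to rise, by 2.21, where T cell markers rose too. In IL5T EoPs Thbd, the thrombomodulin gene, fell by 1.08 against WT.

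Over the means of the 9 groups, 3 genes of 6200 were listed for each member as the nearest in pattern by Pearson correlation, as a description across groups that share arrays, run and version. They were Hexim1, Rara and Plcg2 for Klf2 (r = 0.994 for each), Mbd6, Tti1 and Ssh1 for Klf6 (r from 0.992 to 0.996) and Acbd5, Rnf6 and Gsk3b for Klf7 (r from 0.993 to 0.997). Those nearest to Klf13 were Atxn7l1, Spsb2 and Kbtbd3 (r from 0.986 to 0.995). Klf4 had the least close matches, with Tmem150b at 0.959, Il6st at 0.949 and Tctex1d1 at 0.933.

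Klf10 gave no level. Both of its probes were detected on 0 of 32 arrays, and no fold is given. Its group means, between 4.71 and 4.91 for the probe with the higher mean, each overlapped with the next in order.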

How the data were processed

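The authors deposited the probe intensity of 32 arrays, not normalized between arrays, with a detection p-value for each, and log2 values made by normexp correction and quantile normalization of the 24159 probes on both beadchip versions. The log2 values used here were made from the intensities in the same way, with limma 3.58.1 in R 4.3.3 (normexp with an offset of 16, its negative controls taken for each version from the detection p-values), and differed from the deposited log2 values by at most 0.163. limma's lmFit and eBayes were fitted to all 32 arrays with terms for group and version (22 residual df), with Benjamini-Hochberg adjustment over all probes and a threshold of 0.05. Levels had the version term removed. Each member was given by its probe with the highest mean, with its other probes beside it. Lists were given by counts and up to 3 genes with the largest called change, apart from values added where a result turned on them. The members and lists were chosen with earlier results of these data known. In simulated data 59% to 86% of probes changed by 1 and 92% to 100% of those changed by 2 on the log2 scale were recovered across 11 comparisons. These rates are not those of single members such as Klf2 and Klf6, whose residual SDs were 1.03 and 0.77. By the study's figure legends each array replicate is independent and, for the IL5T eosinophil series, holds RNA of a pool of mice, so p-values measure the spread between pools, not between mice, and the number of arrays limits the precision. Promoter windows came from RefSeq. Figures were drawn with matplotlib 3.10.9.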

Additional observations from a re-analysis of the deposited data

Results flagged for a closer look

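The IL-5 transgene's effect on Klf7 differed between EoPs and GMPs on each of its 3 probes, by -2.08, -1.79 and -1.91 on the log2 scale (limma adjusted p = 5.39e-05, 0.0106 and 0.00348). Of 33 groups of 4 or 5 arrays tested for an array standing apart, 1 did, where chance gives about 1 in 20: on a Klf10 probe EoH BM replicate 2 was at 4.97, with its nearest neighbour at 4.77, but that probe was not detected on any array.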

How the results depend on the processing

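Of the single log2 changes of members under these alternatives, 1466 stayed on the same side of the threshold, 20 no longer passed, 4 newly passed and 2 reversed. A change of sign that neither fit called was counted among the 1466. Of these, 1155 belonged to changes that the main fit did not call. Of the changes that the main fit called, 311 of 333 stayed the same. The 2 reversals were those of Klf4, without a version term, from IL5T EoP to EoM BM at -0.38 and to EoH BM at -0.18. Of the counts of members called, that from IL5T GMP to EoP was 1 in place of 2 with the deposited log2 values, an offset of 50, median scaling, no version term, array weights, the replicate block or only the 16 version 2.0 arrays, and ranged from 1 to 2 on leaving out 1 array. That for the transgene in CMPs was 1 in place of 0 (Klf4) with no background correction or an offset of 50. From EoH BM to EoH PB it was 1 in place of 0 (Klf2) with only the 10 eosinophil arrays. From IL5T CMP to GMP it was 0 in place of 1 with only the version 2.0 arrays and ranged from 1 to 2 on leaving out 1 array, with 2 only without IL5T CMP replicate 4.

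Samples with the same replicate number did not deviate together (r from -0.644 to 0.437, and in 0 of 11 comparisons over 0.1 for every pair), so they share only a number. With the replicate number as a block, 3 members in place of 5 were called from EoP to EoH BM, without Klf13 (1.11, limma adjusted p = 0.149) and Klf4 (1.85, adjusted p = 0.0613), and 0 in place of 1 for the transgene's effect in EoPs against GMPs (Klf7 at -2.01, limma adjusted p = 0.0537).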
